A study of Mus musculus with 32 samples.

Results

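GFP-positive and GFP-negative cells were compared in the olfactory mucosa of adult S100a5-tauGFP mice that had been exposed to eugenol, the odorant of cloves. The comparison took 8 of the 32 arrays of the series, chosen by their labels: 4 of GFP-positive cells and 4 of GFP-negative cells. Arrays that share a number in their titles form an experiment, so each of the 4 eugenol experiments gave 1 array of each fraction. All genes with their own probe set were compared, 19938 in all.

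Dissociated cells of the mucosa were separated by fluorescence-activated sorting, and their total RNA was hybridised to Affymetrix gene arrays. Each mouse was kept alone in an olfactometer, where 26 h of clean air preceded 14 h in which a 10 s pulse of odorant was given at intervals of 5 min. The study asked which odorant receptors respond to an odorant in the living animal. For reference, 2 other pairs of fractions were used: vehicle-exposed mice of the same 4 experiments (8 arrays) and muscone-exposed mice of 4 other experiments (8 arrays). All groups carried the S100a5-tauGFP reporter, and muscone is a musk odorant. The labels do not say how the reporter was built, which sex the mice had or how many mice gave 1 array. The p-values therefore measure the spread between these arrays, which may be technical in part.

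A mature olfactory sensory neuron transcribes 1 odorant receptor allele, and the receptor signals through a G protein, adenylyl cyclase and a cyclic nucleotide-gated channel in the cilia. S100a5 encodes a calcium-binding protein that olfactory neurons make in proportion to their recent activity, so its level marks neurons that have been active. New neurons arise throughout life from basal progenitors, and supporting, glandular, microvillous and blood cells lie among the neurons. Odorant receptor promoters are known for homeodomain sites and for sites of the Ebf (O/E) factors.

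The windows around 4 gene starts are shown because the results below turn on these genes: the gene that the reporter is named for, 2 receptors linked to eugenol that were high in GFP-positive cells, and 1 receptor that was low there. They are RefSeq sequences of GRCm38.p6, from 250 bases before the start to 50 after it, all on the plus strand: S100a5 at chr3:90608272-90608571, Olfr961 at chr9:39646478-39646777, Olfr960 at chr9:39622875-39623174 and Olfr77 at chr9:19916979-19917278. Capitals mark the 50 bases from the start on in S100a5, the 47 bases that Olfr961 and Olfr960 share without a mismatch, and the 3 homeodomain cores of Olfr77.
S100a5: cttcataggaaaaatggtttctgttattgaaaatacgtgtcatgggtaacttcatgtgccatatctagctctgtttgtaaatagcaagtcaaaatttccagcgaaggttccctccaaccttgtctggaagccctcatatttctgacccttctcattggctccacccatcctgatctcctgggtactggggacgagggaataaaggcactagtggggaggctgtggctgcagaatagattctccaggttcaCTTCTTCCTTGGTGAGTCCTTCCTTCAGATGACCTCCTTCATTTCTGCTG
Olfr961: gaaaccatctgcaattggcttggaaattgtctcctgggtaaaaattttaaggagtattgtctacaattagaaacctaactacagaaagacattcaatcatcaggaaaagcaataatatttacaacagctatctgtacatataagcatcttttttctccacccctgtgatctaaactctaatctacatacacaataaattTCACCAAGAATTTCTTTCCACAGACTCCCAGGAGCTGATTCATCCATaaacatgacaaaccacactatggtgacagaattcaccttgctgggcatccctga
Olfr960: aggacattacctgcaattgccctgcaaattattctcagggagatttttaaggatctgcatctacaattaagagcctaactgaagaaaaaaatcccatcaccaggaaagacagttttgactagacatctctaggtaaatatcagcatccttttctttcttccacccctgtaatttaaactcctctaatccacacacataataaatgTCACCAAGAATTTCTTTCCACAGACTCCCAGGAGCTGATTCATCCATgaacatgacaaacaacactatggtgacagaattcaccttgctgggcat
Olfr77: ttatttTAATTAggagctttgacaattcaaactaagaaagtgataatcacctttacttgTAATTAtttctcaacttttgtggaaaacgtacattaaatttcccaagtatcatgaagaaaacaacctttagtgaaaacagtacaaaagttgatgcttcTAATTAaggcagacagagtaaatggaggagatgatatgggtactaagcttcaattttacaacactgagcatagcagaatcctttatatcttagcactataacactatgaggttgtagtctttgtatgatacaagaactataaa

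The windows of Olfr961 and Olfr960 were identical at 78.3% of 314 aligned columns, against 54.0% of 348 columns for Olfr961 and Olfr958, which lies in the same cluster. Olfr961 and Olfr472, the receptor with the largest rise, were identical at 54.7% of their columns. The homeodomain core TAATTA, which reads the same on both strands, lay in 18.5% of the 866 odorant receptor windows and in 5.32% of all 27025 RefSeq windows. Among receptors higher in GFP-positive cells 16.5% of 564 windows held it, and among those lower 21.6% of 171. The Ebf motif CCCNNGGG lay in 3.0% of receptor windows and 13.4% of all windows. TGACG, the core of the cAMP response element, searched on both strands, lay in 5.54% of receptor windows and 20.9% of all. The S100a5 window held none of these motifs. RefSeq models of 629 receptors (72.6%) begin at an ATG, so those windows may not reach the true promoter. The windows of Olfr961 and Olfr960 shown above are of that kind, and the window of Olfr77 is not. The bases shared by Olfr961 and Olfr960 therefore cannot be read as promoter sequence, nor set against the homeodomain cores of Olfr77.

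Array medians lay between 7.52 and 8.66 on the log2 scale, lowest in experiment 3 for both fractions. Arrays of 1 fraction correlated at 0.984 to 0.99 across genes. Of 167 vomeronasal receptors, which belong mainly to another organ, 95% had a mean signal at or under 6.68 in GFP-positive and 6.41 in GFP-negative cells. That level is called dim here, and 72 of 1027 odorant receptors were dim in both fractions. Xist, the RNA of the inactive X chromosome, read 11.53 to 13.08, and Uty, a Y-linked gene, read 7.77 to 10.19 over the 8 arrays. Both lay above the dim level on every array. Between the fractions, GFP-positive minus GFP-negative, Xist differed by −0.35 and Uty by 0.61. Of 4 sex-linked genes measured, 3 were higher in GFP-positive cells and 1 lower (limma adjusted p under 0.05), and 0 passed with all 32 arrays in 1 fit. The number of arrays, 4 in a fraction, limits the precision of every value.

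After eugenol, odorant receptors differed between GFP-positive and GFP-negative cells with rises and falls, and transcripts of blood cells, dividing cells and microvillous cells were lower in GFP-positive cells. These directions were not particular to eugenol. Medians after eugenol, under vehicle and after muscone were 0.75, 0.70 and 1.01 for odorant receptors and −4.54, −4.00 and −3.89 for neutrophil genes. They were −1.84, −1.41 and −2.13 for cell cycle genes and −1.65, −1.82 and −2.73 for genes of tuft-like microvillous cells. The 15 largest rises in GFP-positive cells were all odorant receptors. The 15 largest falls included the neutrophil genes Chil3, Mmp8 and S100a8. They also held Alox5ap and Rgs13, which are listed here for tuft-like microvillous cells. Whether other cell types, such as blood cells, had a part in the falls of Alox5ap and Rgs13 was not tested. In all, GFP-positive cells had higher signals for 7633 genes and lower signals for 4271 (38.3% and 21.4% of the genes tested, 59.7% together; limma with the experiment as a block, Benjamini-Hochberg adjusted p under 0.05). Most rises were small: 442 genes (2.22%) were higher by over 1 on the log2 scale, and 1430 (7.17%) were lower by over 1. The fractions did not overlap in 8.84% of genes: in 390 (1.96%) all 4 GFP-positive arrays lay above all GFP-negative arrays, and in 1373 (6.89%) all lay below.

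The median gene was 0.12 higher in GFP-positive cells as deposited. When arrays were centred on genes of mature olfactory neurons every difference dropped by 0.17, and when they were centred on the median odorant receptor it dropped by 0.59. The split of 7633 higher and 4271 lower became 1811 and 4940 with the first, and 639 and 17251 with the second. Centring on all probe sets gave 10879 and 3657. The fractions also differ in cell types, and in sorted pools fewer cells of a type and less RNA per cell cannot be told apart.

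**Figure D1:**
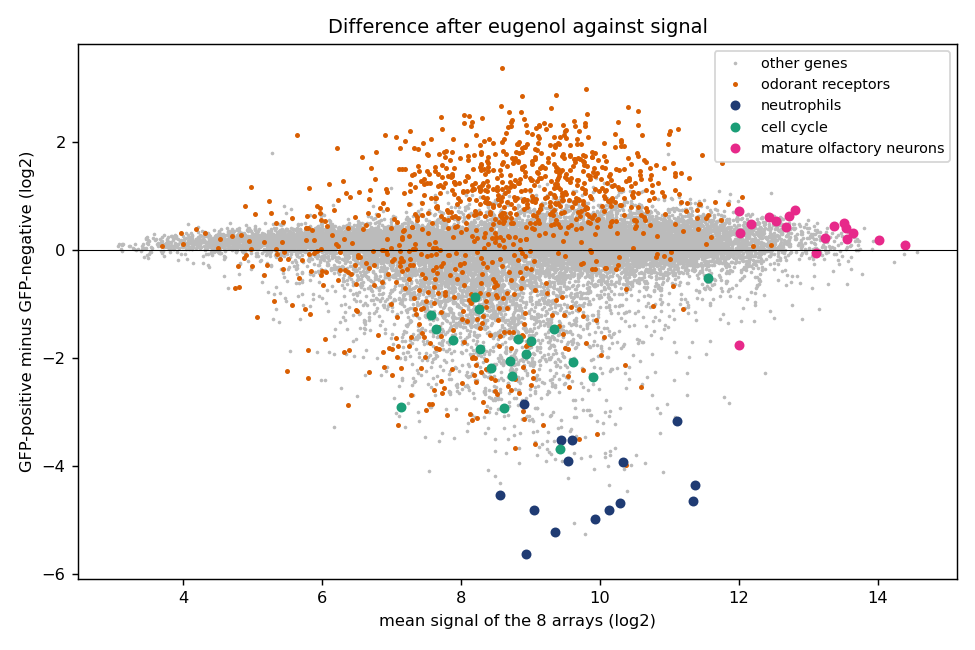
Each point is 1 of 19938 genes: the x axis is the mean log2 signal over the 8 eugenol arrays, the y axis the fitted difference between GFP-positive and GFP-negative cells (log2). Odorant receptors spread from −3.98 to +3.37, mature neuron genes sit mostly between 0 and 1, and the 15 neutrophil and 19 cell cycle genes all lie below 0.

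S100a5, the gene that the reporter is named for, was higher in GFP-positive cells in 4 of 4 experiments. It read 11.79, 7.10, 6.22 and 7.21 in GFP-positive cells of experiments 1 to 4, and 10.62, 6.87, 5.79 and 6.90 in GFP-negative cells. Experiment 1 stood far above the others in both fractions, and the fractions overlapped between experiments. In experiments 2 to 4 the signals lay close to the 95th percentile of vomeronasal receptors on the same arrays. That percentile was 7.20, 5.95 and 6.87 in GFP-positive cells and 6.87, 5.78 and 6.51 in GFP-negative cells. The size of the difference is therefore uncertain in those experiments. The fitted difference of S100a5 was 0.54 (SE 0.15, limma adjusted p = 0.0225), and it was −0.05 when centred on odorant receptors. Without experiment 1 the difference was 0.33 (limma adjusted p = 0.0133). Without experiment 3 its adjusted p in limma was 0.0536 (difference 0.57). Omp, a marker of mature olfactory neurons, read 14.26, 14.30, 13.86 and 14.07 in GFP-positive cells and 14.08, 14.12, 13.67 and 13.84 in GFP-negative cells. GFP-positive cells were higher by 0.18 to 0.23 within experiments. The fitted difference was 0.20 (SE 0.05, limma adjusted p = 0.0143), 0.03 when centred on mature neuron genes (limma adjusted p = 0.914) and −0.39 when centred on odorant receptors. Omp is itself 1 of the mature neuron genes used for the former centring. Without experiment 4 the adjusted p of Omp in limma was 0.0604.

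Odorant receptors were higher in GFP-positive cells more often than the genes tested as a whole, and lower at about the same share. Of 1027 measured, 661 were higher in GFP-positive cells (64.4%, beside 38.3% of all genes), 209 were lower (20.4%, beside 21.4%) and 157 did not pass. Their median difference was 0.75, beside 0.12 for all genes, and the middle of the family ran from −0.14 to 1.37 (25th to 75th percentile). Rises of over 1 were seen in 401 receptors and falls of over 1 in 137. Over 2, there were 72 rises and 57 falls. Centred on mature neuron genes, the family split into 620 higher and 261 lower (median 0.58), and centred on its own median level into 480 and 367 (median 0.16).

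**Figure D2:**
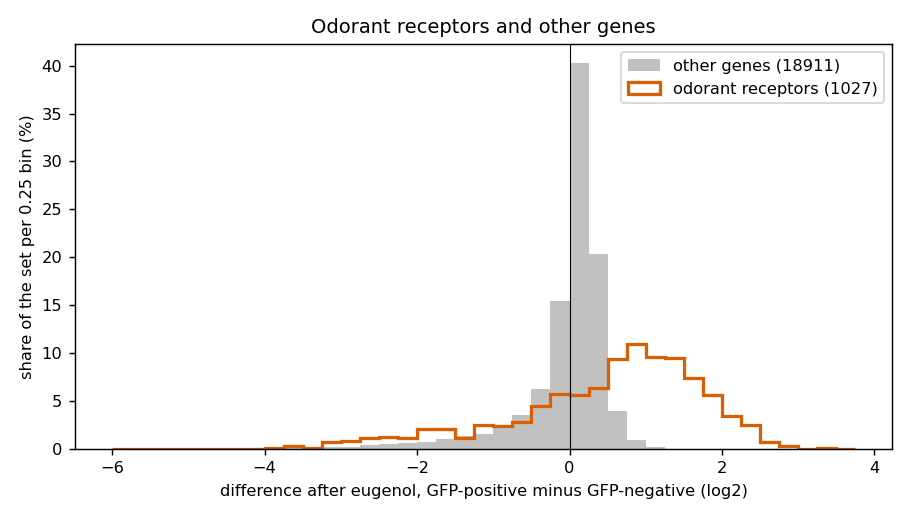
Share of genes (%) in bins of 0.25 of the fitted difference between GFP-positive and GFP-negative cells after eugenol (log2), for 1027 odorant receptors (line) and 18911 other genes (filled). Receptors have a median of 0.75 with tails on both sides, while other genes crowd near a median of 0.11, which turns to −0.47 when centred on odorant receptors.

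The largest rise was that of Olfr472. It read 10.25, 11.24, 9.53 and 10.10 in GFP-positive cells of experiments 1 to 4 and 7.20, 7.24, 6.43 and 6.75 in GFP-negative cells. Every GFP-positive array lay above every GFP-negative array, and the difference was 3.37 (SE 0.15, 10.4-fold, limma adjusted p = 1.31e-05). Olfr849 read 10.98, 11.67, 11.03 and 11.49 against 8.39, 8.23, 8.15 and 8.48, a difference of 2.98 (SE 0.13) without overlap. Olfr323 (2.87), Olfr101 (2.85), Olfr1082 (2.68), Olfr633 (2.65), Olfr854 (2.63) and Olfr527 (2.58) followed. In vehicle-exposed mice of the same experiments Olfr472 differed by 3.17, Olfr849 by 2.44 and Olfr323 by 2.85.

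The largest fall among receptors was that of Olfr1176. It read 8.97, 8.56, 8.69 and 7.33 in GFP-positive cells and 12.32, 13.03, 12.07 and 12.02 in GFP-negative cells. The fractions did not overlap, and the difference was −3.98 (SE 0.24, 15.8-fold lower, limma adjusted p = 4.04e-05). Olfr77, whose window holds the 3 homeodomain cores shown above, read 7.53, 7.20, 6.54 and 6.52 against 10.27, 11.40, 10.34 and 10.47 (difference −3.67, SE 0.22). Olfr677 (−3.59), Olfr728 (−3.50), Olfr393 (−3.41) and Olfr116 (−3.24) came next, all without overlap. Each of these 6 receptors was thus lower in GFP-positive cells on all arrays. Under vehicle Olfr1176 differed by −3.92 and Olfr77 by −3.47.

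Receptors with a history in the field fell on both sides, as did the whole family. Olfr1507, also known as MOR28, a receptor used in studies of receptor choice, read 8.19, 7.75, 6.92 and 6.73 in GFP-positive cells and 10.93, 10.62, 10.11 and 9.90 in GFP-negative cells (difference −2.99, SE 0.09). Olfr17, the P2 receptor of axon targeting studies, read 12.32, 13.00, 11.60 and 12.17 against 11.68, 12.09, 10.81 and 11.09 (difference 0.86, SE 0.08). Its fractions overlapped between experiments. Olfr43 (1.75, SE 0.05) and Olfr15 (1.64, SE 0.14) were higher. Among 13 such receptors 7 were higher and 4 lower (53.8% and 30.8%, beside 64.4% and 20.4% of all odorant receptors). Their median of 0.47 turned to −0.11 when centred on odorant receptors.

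By position, receptors of chromosome 14 (28 of 35, 80.0%) and chromosome 17 (34 of 43, 79.1%) were the most often higher among chromosomes with over 30 measured receptors. Those of chromosome 10 (21 of 56, 37.5%) and chromosome 11 (24 of 70, 34.3%) were the most often lower. The block of 116 receptors around the beta-globin genes, from Olfr543 to Olfr692, is the region known for class I receptors. In it 84 were higher and 17 lower (median 0.95), beside 577 higher and 192 lower of the 911 others (median 0.70). No test of a difference between these sets was made.

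Trace amine-associated receptors, another receptor family of the main epithelium, were higher in GFP-positive cells for 7 of 13 (53.8%, beside 38.3% of all genes). Taar2 (−0.74) was the 1 lower member, and the median was 0.95 (0.37 when centred on odorant receptors). Taar9 read 10.59, 11.24, 9.93 and 10.57 against 8.65, 8.81, 7.43 and 8.67 (difference 2.19, SE 0.12), with no overlap. Taar4, a receptor for phenylethylamine, was higher by 1.78 (SE 0.15), and Taar5, a receptor for trimethylamine, by 1.48 (SE 0.10). Vomeronasal receptors set the dim level, so that 157 of 167 were dim in both fractions follows from its definition. Of the 167, 59 were higher (35.3%, beside 38.3% of all genes), with a median of 0.17 that was −0.41 when centred on odorant receptors. That count moved with the setting: it was 29 without experiment 4, 15 after quantile normalization, 1 when centred on mature neuron genes and 115 when centred on all probe sets.

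Of 10 receptors linked to eugenol 9 were higher in GFP-positive cells and 1 lower, with a median of 1.85 beside 0.75 for all odorant receptors. Part of the eugenol list was recalled from the study's own work on these arrays, so its direction is not independent evidence. The largest differences were those of Olfr960, Olfr958 and Olfr961, and the receptor mOR-EG was among the smallest.

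Olfr960 read 8.66, 10.18, 8.67 and 8.25 in GFP-positive cells and 6.71, 7.44, 5.74 and 6.03 in GFP-negative cells. Its difference of 2.46 (SE 0.16, 5.51-fold, limma adjusted p = 5.16e-05) ranked 14 among 1027 receptors. Olfr958 read 11.98, 12.01, 11.42 and 11.43 against 9.78, 9.86, 8.54 and 9.37, a difference of 2.32 (SE 0.14) and rank 26. These 2 receptors and Olfr961 were higher without overlap. Olfr961 read 10.64, 11.29, 10.35 and 10.13 against 8.66, 8.99, 7.65 and 8.24, a difference of 2.21 (SE 0.13, 4.64-fold) and rank 42. Olfr178 differed by 1.96 (SE 0.29), Olfr432 by 1.87 (SE 0.18), Olfr913 by 1.83 (SE 0.17) and Olfr1234 by 1.41 (SE 0.24). These 4 also separated the fractions on all arrays.

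Olfr73, the mOR-EG receptor first characterised with eugenol, differed less. It read 9.14, 10.17, 8.62 and 8.26 in GFP-positive cells and 8.50, 9.14, 7.91 and 7.90 in GFP-negative cells, so that experiments overlapped. The difference was 0.69 (SE 0.10, limma adjusted p = 0.00185), rank 536, and it was 0.10 when centred on odorant receptors (adjusted p = 0.343). Olfr610 differed by 0.60 (SE 0.16, adjusted p = 0.0156), by 0.01 with that centring and by 0.39 without experiment 2. Olfr74, the mOR-EV receptor known for vanillin compounds, read 8.34, 9.23, 7.14 and 7.60 against 8.42, 9.67, 7.88 and 8.14, a difference of −0.45 (SE 0.10, limma adjusted p = 0.0107). With all 32 arrays in 1 fit, the adjusted p of Olfr610 was 0.0674 and that of Olfr74 was 0.295.

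**Figure D3:**
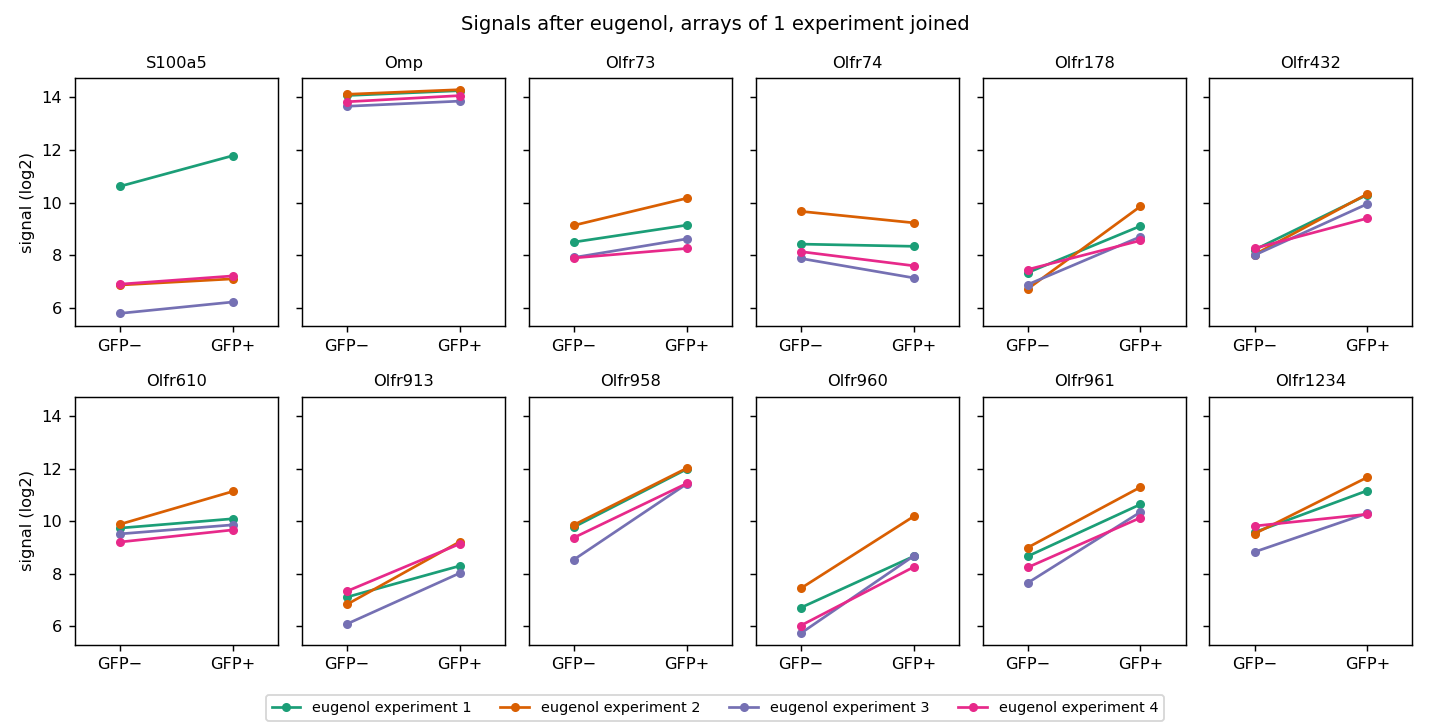
Log2 signal of S100a5, Omp and the 10 receptors linked to eugenol, with GFP-negative cells left and GFP-positive cells right in each panel, and a line joining the arrays of 1 experiment. Lines rise in all 4 experiments for Olfr960, Olfr958 and Olfr961 and fall in all 4 for Olfr74, and experiment 1 stands apart in S100a5.

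Olfr958, Olfr960 and Olfr961 lie in 1 cluster on chromosome 9, and their neighbours did not all move with them. In the order of the annotation, Olfr957 was lower (−1.27), Olfr958 higher (2.32), and Olfr959 differed by 0.39. Olfr148 followed with 1.48, then Olfr960 (2.46), Olfr961 (2.21) and Olfr963 (1.28). Olfr149 did not pass (0.24, limma adjusted p = 0.252), and Olfr965 (2.56), Olfr967 (1.78) and Olfr968 were higher. Probe sets of close relatives such as Olfr960 and Olfr961 may read each other's transcripts, which was not tested.

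The difference between eugenol and vehicle was tested by subtracting the same contrast under vehicle in the same 4 experiments. No gene of 19938 passed (0.0%), and 361 (1.81%) had a raw p under 0.05 in limma. The fit blocked on the experiment, which holds eugenol and vehicle arrays, so variation shared by both fractions of 1 exposure stayed in the error. Such variation can hide a difference, so the lack of calls does not show that the contrasts were equal. The receptor that moved furthest upward was Olfr961. Its difference between fractions was 1.98, 2.30, 2.70 and 1.89 after eugenol and 1.42, 0.95, 1.44 and 0.67 under vehicle, larger after eugenol in 4 of 4 experiments. The change was 1.09 (SE 0.23, limma adjusted p = 1.0), the highest of 1027 receptors, and 1.01 to 1.27 over the alternatives, where the lowest adjusted p was 0.53. Olfr958 (0.93, SE 0.26) and Olfr960 (0.86, SE 0.29) ranked 2 and 3, each larger in 4 of 4 experiments, and both also failed the correction. Olfr913 ranked 15, Olfr610 30, Olfr74 43, Olfr73 70 and Olfr432 475. The list of receptors linked to eugenol was recalled in part from work on these arrays, so these ranks are not independent evidence either.

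Other genes with the smallest p in that subtraction included receptors that moved the opposite way. Olfr116 was lower in GFP-positive cells by 3.24 after eugenol and by 2.38 under vehicle (change −0.86, SE 0.18). Olfr181 was higher by 1.37 after eugenol and 2.01 under vehicle (change −0.65). Olfr1085 was higher by 1.47 and 0.83 (change 0.64). Among other genes, Ablim1, an actin-binding protein, changed by −0.70, and the dividing-cell genes Top2a and Mki67 by −0.75 and −0.65. None passed the correction, and S100a5 itself changed by 0.01 (SE 0.28).

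**Figure D4:**
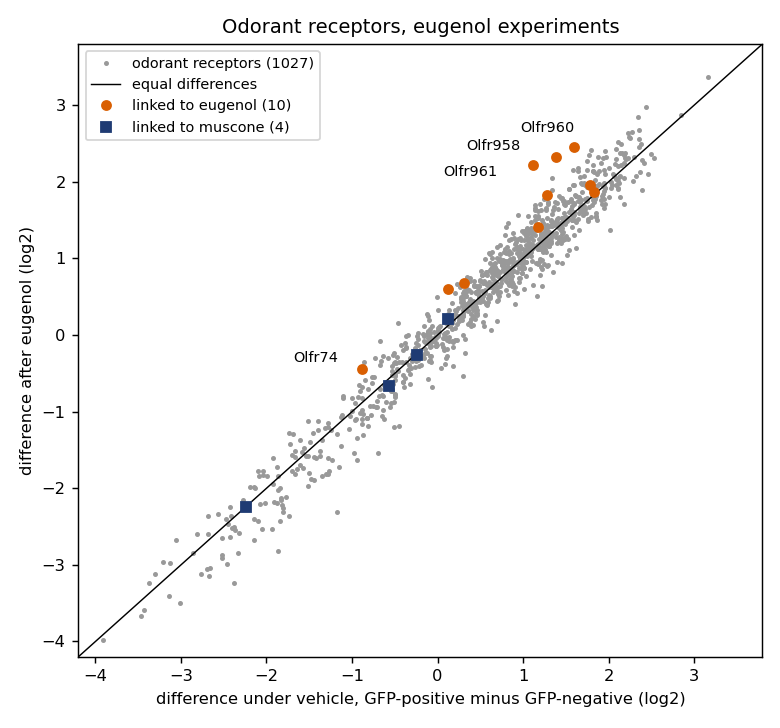
Each point is 1 of 1027 odorant receptors: the x axis is its difference between GFP-positive and GFP-negative cells under vehicle, the y axis the same after eugenol (both log2), and the line marks equal differences. Olfr961, Olfr958 and Olfr960 lie above the line by 1.09, 0.93 and 0.86, and the 4 receptors linked to muscone lie close to it.

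The contrast after eugenol was also set against that after muscone, which shares no array with it. Of 19938 genes 7 differed (0.0351%; 13.4% had a raw p under 0.05 in limma). Of these, 4 had a higher difference after eugenol than after muscone (0.0201%) and 3 were receptors linked to muscone (0.015%), a list recalled in part from the same study. Olfr1440, the muscone receptor MOR215-1, read 10.97, 11.04, 10.34 and 10.55 in GFP-positive cells after eugenol and 11.42, 11.92, 10.74 and 11.45 in GFP-negative cells. It was thus slightly lower in GFP-positive cells (−0.66, SE 0.10, limma adjusted p = 0.00213, or 0.0687 with all 32 arrays in 1 fit), while after muscone it was higher by 2.81. The difference of the contrasts was −3.46 (SE 0.22, limma adjusted p = 0.0017), and it passed in 14 of 15 alternatives. Without the block, the exception, its adjusted p was 0.112.

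Olfr1434 was dim in GFP-positive cells after eugenol (mean 4.37, beside 6.62 in GFP-negative cells), so the size of its fall was not measured. Its difference of the contrasts passed (limma adjusted p = 0.0476). Olfr235 differed by −0.26 after eugenol (adjusted p = 0.354 in limma) and by 2.86 after muscone (difference −3.12, adjusted p = 0.0476). Olfr1431 differed by 0.21 after eugenol and 3.11 after muscone (difference −2.90), and its limma adjusted p of 0.0622 did not pass. Olfr1434 passed in 6 and Olfr235 in 7 of 15 alternatives. Csrnp1, Hdc and Rap2b were lower in GFP-positive cells after both odorants, and less so after eugenol: Csrnp1 (−0.28 and −1.54), a nuclear protein, Hdc (−1.08 and −2.40), which makes histamine, and Rap2b (−0.60 and −1.24), a small GTPase. Hsd11b1, a glucocorticoid-activating enzyme, was dim in GFP-positive cells after eugenol and at least 1.99-fold lower there. Csrnp1 passed in 10, Hdc in 7, Hsd11b1 in 5 and Rap2b in 4 of 15 alternatives, and with 1 eugenol experiment left out, 0 or 1 gene was past the threshold upward and 1 or 2 downward. Without muscone experiment 3 the counts were 88 and 15.

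Genes of mature olfactory neurons were higher in GFP-positive cells. Of 18 measured, 15 were higher (beside 38.3% of all genes), 1 lower, and the median was 0.42. It became 0.25 when centred on mature neuron genes and −0.16 when centred on odorant receptors. The former centring uses these same 18 genes, so it is no separate check of them. Ano2, the calcium-activated chloride channel of olfactory cilia, read 13.35, 13.39, 12.81 and 13.19 in GFP-positive cells and 12.74, 12.61, 12.10 and 12.30 in GFP-negative cells. Its lowest GFP-positive array was above its highest GFP-negative array, with a difference of 0.75 (SE 0.06). Cnga4, a subunit of the transduction channel, was higher by 0.64 and Slc17a6, a vesicular glutamate transporter, by 0.61 (SE 0.06 each). The exception was Calb2, the calcium-binding protein calretinin, at 11.26, 11.68, 10.55 and 11.04 against 12.83, 13.40, 12.27 and 13.03 (difference −1.75, SE 0.08).

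The signalling genes were not uniform. Of 20 measured genes of the transduction cascade and its regulators, 12 were higher and 5 lower, beside 38.3% and 21.4% of all genes. The share of lower genes was thus near that of all genes. The median was 0.37 (−0.21 when centred on odorant receptors). The lower members were regulators: Rgs2, a regulator of G protein signalling, at 7.65, 8.01, 7.37 and 7.94 against 10.82, 11.29, 10.36 and 10.78 (difference −3.07, SE 0.08), Pde2a, a phosphodiesterase of guanylyl cyclase D neurons (−2.59), and Grk3 (−1.45), Arrb2 (−0.68) and Camk2g (−0.22), a receptor kinase, an arrestin and a calcium-dependent kinase. Blood cell transcripts fell in the same arrays, and their part in these falls was not tested. Of 13 genes of receptor trafficking and G protein partners 6 were higher and 2 lower (46.2% and 15.4%, near the 38.3% and 21.4% of all genes). Their median was 0.12, and −0.05 when centred on mature neuron genes. Reep1, a receptor trafficking protein, was higher by 0.76 and Ric8b, an exchange factor of the olfactory G protein, by 0.50 (−0.09 when centred on odorant receptors). Gnai2 (−2.93) and Gng8 (−2.46), G protein subunits of other or younger cells, were lower.

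Genes of cilia, synapses and excitability were mostly higher, beside 38.3% of all genes. Of 25 genes of intraflagellar transport and the BBSome, which carry cargo in cilia, 24 were higher and 0 lower (median 0.44), led by Bbs5 (0.70), Ift74 (0.64), Ttc8 (0.63) and Bbs7 (0.60). Of 19 presynaptic genes 15 were higher and 0 lower (median 0.40), with the vesicle proteins Sv2b (0.93), Syn2 (0.87) and Syt4 (0.74) in front. Of 27 ion channel genes 18 were higher and 1 lower, Kcnq5 (−0.28), with a median of 0.27. Kcnmb3, a subunit of calcium-activated potassium channels, was higher by 1.09, the calcium-activated potassium channel Kcnn2 by 0.98 and the sodium channel Scn8a by 0.74. Of 37 genes of oxidative phosphorylation 24 were higher and 0 lower (median 0.25). Genes listed for respiratory ciliated cells, many of which serve cilia in general, were higher for 13 of 15 and lower for 0 (median 0.59). All 5 medians turned negative when centred on odorant receptors, to between −0.34 and −0.00.

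Genes known to rise with olfactory neuron activity were higher in GFP-positive cells for 11 of 14 (78.6%, beside 38.3% of all genes). Lgi2 (−0.60) and Nr4a2 (−0.47) were lower, and the median was 0.71 (0.13 when centred on odorant receptors). Lrrc3b, a leucine-rich repeat membrane protein, read 10.76, 11.18, 9.37 and 10.51 against 9.69, 10.02, 8.49 and 9.24 (difference 1.10, SE 0.07). Pcp4l1, a relative of a calmodulin-binding peptide, read 13.11, 13.34, 12.65 and 12.88 against 12.27, 12.23, 11.61 and 11.66 (difference 1.05, SE 0.07), and its fractions did not overlap. The adhesion molecules Kirrel2 and Pcdh10, which sort olfactory axons by activity, were each higher by 0.92 (SE 0.06 and 0.07).

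Genes known to fall with activity were not lower as a group: 6 of 7 were higher and 1 lower (median 0.34, −0.24 when centred on odorant receptors). Counts here are read beside 38.3% higher and 21.4% lower of all genes. The ephrin receptors Epha5 (1.02) and Epha7 (0.96) and the semaphorin receptor Plxna3 (0.67) were higher. Plxnc1, the receptor of semaphorin 7A, was the lower one, at 7.80, 7.67, 7.45 and 8.16 against 10.11, 10.21, 9.19 and 9.99 (difference −2.10, SE 0.14). Its ligand Sema7a was higher by 0.74 (SE 0.05). Of 18 axon sorting molecules 12 were higher and 1 lower (median 0.22, −0.36 when centred on odorant receptors), and of 34 protocadherins 28 were higher and 3 lower (median 0.37, −0.22).

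Immediate early genes, which respond to activity within minutes, were mostly lower in GFP-positive cells: 12 of 18 were lower (beside 21.4% of all genes) and 2 higher, with a median of −0.48. Btg2, an antiproliferative early gene, read 8.90, 9.07, 8.20 and 8.54 against 11.30, 11.68, 10.38 and 10.89 (difference −2.39, SE 0.08). The transcription factors Junb (−1.28), Egr2 (−1.17) and Egr1 (−1.14) were lower as well, each with overlap between experiments. The 2 higher genes were Npas4 (0.38, SE 0.13), a neuronal activity factor, and Ier2 (0.27, SE 0.06), and both turned below 0 when centred on odorant receptors. Blood cell genes fell in the same arrays, and their part in these falls was not tested.

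Of 17 regulators of odorant receptor choice 1 was higher (5.88%, beside 38.3% of all genes) and 5 lower (29.4%, beside 21.4%), with a median of −0.03. Lbr, the lamin B receptor, read 9.67, 10.12, 9.21 and 9.70 against 10.85, 11.59, 10.14 and 10.77 (difference −1.16, SE 0.09). Its level was thus lower in GFP-positive cells in all 4 experiments. The heterochromatin protein Cbx5 (−0.28) and the demethylase Kdm1a (−0.25) were lower by little, as were the methyltransferases Ehmt1 and Ehmt2 (−0.19 each), and Ebf4, an Ebf family factor, was higher by 0.30 (0.13 when centred on mature neuron genes, limma adjusted p = 0.495, and −0.29 when centred on odorant receptors). Without experiment 3, and likewise without experiment 4, the count of lower genes was 3.

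Genes of dividing cells and basal progenitors were lower in GFP-positive cells, as were most listed genes of immature neurons. The counts are read beside 21.4% lower and 38.3% higher of all genes, and 6.89% lower without overlap. All 19 cell cycle genes and all 11 genes of basal progenitors were lower, with medians of −1.84 and −1.31. Top2a, a topoisomerase of dividing cells, read 7.22, 7.31, 6.87 and 7.22 in GFP-positive cells and 9.96, 10.55, 9.65 and 10.18 in GFP-negative cells (difference −2.93, SE 0.09). Mki67, another marker of dividing cells, was lower by 12.8-fold (difference −3.68, SE 0.07). Neurod1, a factor of neuronal precursors, read 6.74, 7.11, 6.38 and 6.31 against 9.83, 11.09, 9.99 and 10.51. Its GFP-positive mean was dim, so it was at least 12.8-fold lower, taking the dim level in place of that mean (limma adjusted p = 1.31e-05). None of these 3 genes overlapped between the fractions. Of 15 genes of immature neurons 10 were lower and 2 higher (median −1.13), the latter Trib3 (0.46) and Ddit3 (0.17), genes of the stress response, which both turned below 0 when centred on odorant receptors. Nhlh1, a factor of newly formed neurons, was lower by 3.09 (SE 0.14) and Sox11 by 2.40 (SE 0.11). Of 59 cytosolic ribosomal protein genes 50 were lower and 0 higher (median −0.51), with Rplp0 at −1.31.

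Genes of microvillous cells were mostly lower as well, beside 21.4% of all genes. Of 12 tuft-like genes 10 were lower and 0 higher (median −1.65), and all 7 ionocyte-like genes were lower (median −1.79). Rgs13, a regulator of G protein signalling in tuft cells, read 7.27, 6.95, 5.42 and 6.01 against 10.86, 11.03, 10.19 and 10.81. Its GFP-positive mean was dim, which makes it at least 16.5-fold lower (limma adjusted p = 1.45e-05). Plcb2, the phospholipase of the taste cascade, was lower by 2.77 and Hepacam2, an ionocyte gene, by 3.01. Cftr, the chloride channel of ionocytes, was dim in GFP-positive cells and at least 2.62-fold lower.

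The lists of neutrophils, B cells and macrophages had the lowest medians of the lists described. Their counts are read beside 21.4% of all genes that were lower and 6.89% that were lower without overlap. All 15 neutrophil genes were lower with no overlap between the fractions (median −4.54), as were all 15 genes of macrophages and leukocytes (median −2.58). The mean of the neutrophil genes was 7.16 to 8.39 over GFP-positive arrays and 11.5 to 12.7 over GFP-negative arrays. Chil3, a chitinase-like protein, read 6.54, 7.18, 5.24 and 5.52 against 11.61, 12.43, 11.25 and 11.75. Its GFP-positive mean was dim, which makes it at least 33.9-fold lower (limma adjusted p = 6.14e-06). S100a8, a calcium-binding protein of neutrophil granules, was lower by 4.98 (SE 0.09) and Mmp8, a neutrophil collagenase, by 5.23 (SE 0.06). Of 13 genes of B cells and antigen presentation 12 were lower (median −3.06), with H2-Aa at −4.06 and Cd79b at −3.54. All 7 erythroid genes were lower (median −0.80), with Slc4a1, the band 3 anion exchanger, at −3.79.

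The lists of supporting and gland cells spread widely between experiments. Of 14 sustentacular genes 7 were lower and 0 higher, and the median of the list was −0.43, −1.67, −0.55 and 0.03 in experiments 1 to 4. Experiment 2 also was the lowest for Bowman's glands (8 of 14 lower, 57.1%, medians −0.15 to −1.78) and for odorant and xenobiotic metabolising enzymes (11 of 17 lower, 64.7%, medians −0.59 to −1.79). Ltf (−3.16) is counted both for Bowman's glands and for neutrophils. Krt8, a keratin of supporting cells, was lower by 1.88 (SE 0.06), and Notch2 by 2.07 (SE 0.22). Among the enzymes, Gstp1, a glutathione transferase, was lower by 1.99 (SE 0.10) and Fmo1, a flavin monooxygenase, by 1.49 (SE 0.16). Without experiment 2 the counts were 6, 8 and 11, and without experiment 4 they were 9, 6 and 14. The median of the sustentacular list was −0.60 after eugenol, 0.02 under vehicle and 0.09 after muscone. For Bowman's glands these medians were −0.96, −0.45 and −0.54, and for the enzymes −1.06, −0.30 and −0.23. Differences between these list medians were not tested.

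Counts in the next lists are read beside 38.3% higher and 21.4% lower of all genes. Of 11 genes of guanylyl cyclase D neurons, a separate chemosensory type, 8 were lower and 2 higher (median −1.29). Most of the lower ones were Ms4a genes, such as Ms4a6c (−3.36), which myeloid cells also express. Gucy2d, which defines the type, differed by −0.01 and did not pass. Whether blood cells had a part in the falls of the Ms4a genes was not tested. Of 10 horizontal basal cell genes 8 were lower and 0 higher (median −0.64), with Krt5, a basal keratin, at −2.12. Of 12 endothelial genes 1 was higher and 3 lower (median −0.00), with Pecam1, which leukocytes also carry, at −1.03.

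The remaining cell types and neuron classes are read beside 38.3% higher and 21.4% lower of all genes. Of 9 genes of T and NK cells 7 were lower and 0 higher (median −0.47), of 9 genes of mast cells and basophils 6 were lower and 1 higher (median −0.94), and of 12 fibroblast and collagen genes 9 were lower and 0 higher (median −0.38). Fn1, which encodes fibronectin, was lower by 4.06. Of 9 respiratory secretory genes 6 were lower and 1 higher (median −0.63). Of 10 genes of ensheathing glia 2 were higher and 1 lower (median 0.08, −0.09 when centred on mature neuron genes). Of 5 dorsal zone genes 3 were higher and 0 lower (median 0.19), and of 6 ventral zone genes 2 were higher and 1 lower (median 0.05). Both zone medians were negative when centred on odorant receptors. Of 5 genes of atypical olfactory neurons 3 were higher and 1 lower (median 0.33, −0.26 when centred on odorant receptors).

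Counts for stress, apoptosis and axon guidance are read beside the same shares of all genes. Of 15 genes of the oxidative stress response 8 were higher and 5 lower (median 0.21, −0.38 when centred on odorant receptors). Srxn1, which repairs oxidised peroxiredoxins, was higher by 0.88, and Cat, the catalase that blood cells also hold, was lower by 2.18. A part of blood cells in the fall of Cat was not tested. Of 15 genes of the unfolded protein response 5 were higher and 3 lower (near the shares over all genes; median 0.05, −0.12 when centred on mature neuron genes), and these counts were 2 and 1 without experiment 2, 3 and 1 without experiment 3, and 2 and 1 without experiment 4. Of 17 apoptosis regulators 4 were higher and 8 lower (median 0.02, −0.15 when centred on mature neuron genes), with the initiator caspase Casp8 at −3.38. Of 20 axon guidance genes 6 were higher and 5 lower (also near those shares; median 0.04, −0.13 with the same centring).

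**Figure D5:**
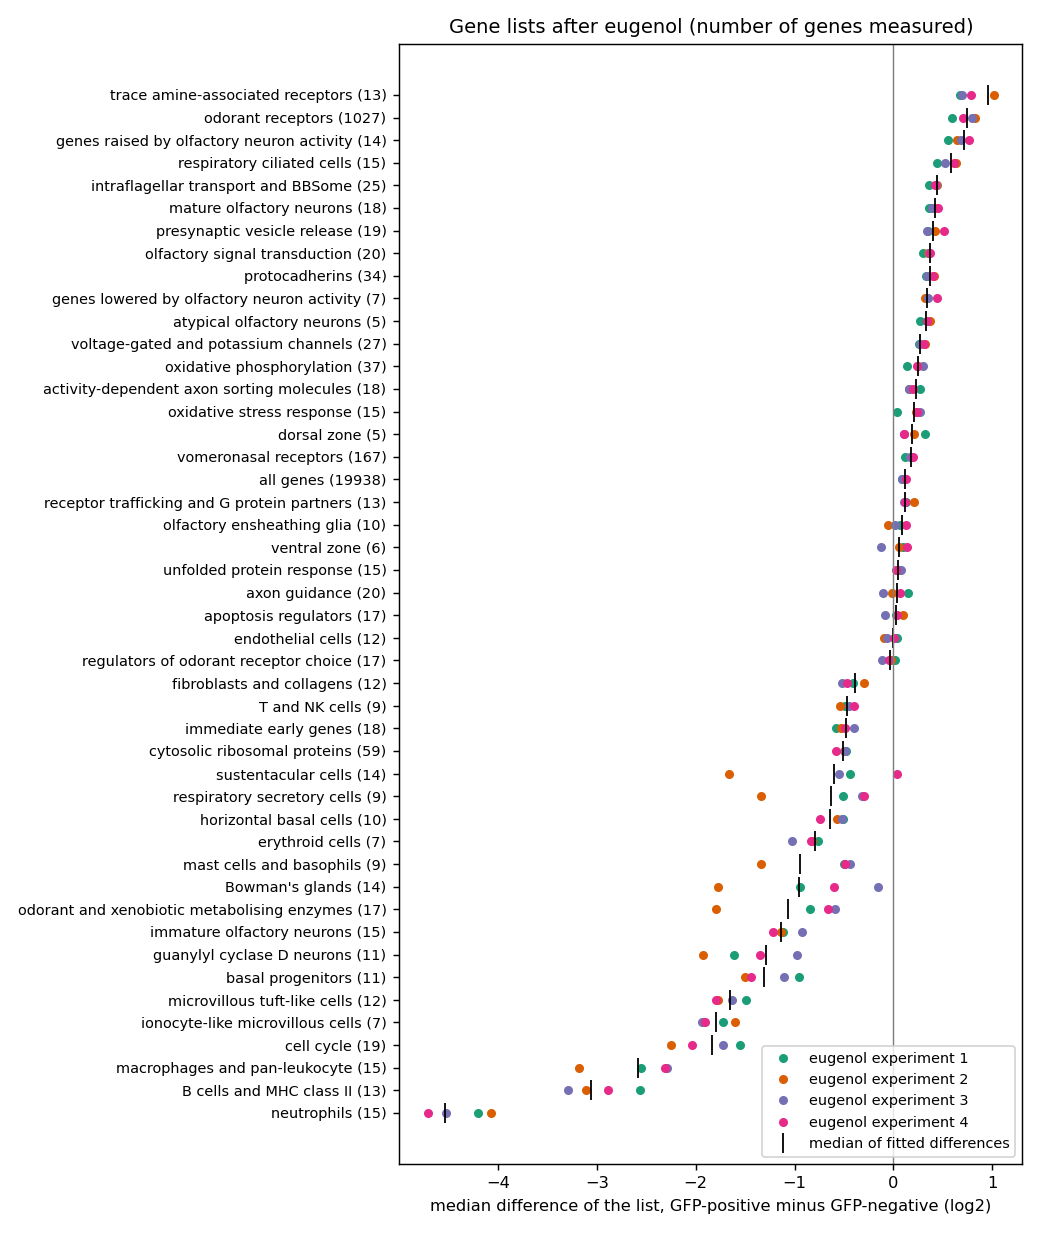
Median difference between GFP-positive and GFP-negative cells after eugenol (log2) for each gene list, with the number of genes measured in brackets, coloured points for the 4 experiments and a bar for the median of the fitted differences. Odorant receptors (0.75) and mature olfactory neurons (0.42) lie right of 0, immature olfactory neurons (−1.13), neutrophils (−4.54) and cell cycle genes (−1.84) lie left in all 4 experiments, and sustentacular genes range from −1.67 to 0.03. When centred on odorant receptors, the median of mature olfactory neurons turns to −0.16.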

How the data were processed

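The deposited values are log2 probe set signals of Affymetrix Mouse Gene ST arrays, made with Affymetrix Expression Console per the submitters' processing notes. The sources used here do not state its version, background correction, normalization or summary step. Of 35556 probe sets, those with 1 gene symbol were used (21789); 1621 with several and 12146 without annotation were not analysed here. For 999 genes with more than 1 probe set the one with the highest mean over 32 arrays stood, which left 19938 genes. Groups and experiments came from the array titles.

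Differences were fitted with limma 3.58.1 (R 4.3.3, lmFit and eBayes) on 8 arrays with the experiment as a block and Benjamini-Hochberg adjustment over all genes (threshold 0.05). The title number pairs the arrays, and deviations of arrays sharing a number correlated at 0.571 to 0.645 beside −0.364 to −0.0267 for other pairs. The differences from vehicle and muscone were fitted on 16 arrays each, with the experiment as a block. For vehicle that block does not pair the fractions of 1 exposure. Alternatives were no block, a random block, all 32 arrays, the mean of a gene's probe sets, 4 other scalings, array weights, a trended and robust fit, dim genes left out, and each experiment left out. The fit was tested on simulated data with known changes.

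Named genes were the 15 largest changes a direction, the 20 largest rises and 10 largest falls of odorant receptors (past the threshold, 1 sign in all 4 experiments), up to 4 members a list with the smallest p, S100a5, Omp, the eugenol and muscone lists, and from both difference tests the 10 receptors and 5 other genes with the smallest p. Other list members that went against their list, and neighbours, were chosen after their values were seen. Members and lists were chosen with earlier results of these data known, and the eugenol and muscone lists come partly from recall. For a gene dim in 1 fraction, a fold is given as at least the other fraction's mean over the dim level. The number of arrays limits the precision.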

Additional observations from a re-analysis of the deposited data

Results flagged for a closer look

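Among 332 groups of 4 experiment differences examined, 10 held 1 experiment far from the other 3, and chance flags about 1 in 20 groups. The differences between GFP-positive and GFP-negative cells that stood apart (log2) were those of Kdm1a in experiment 4 (−0.34), Ptprc in experiment 2 (−4.18), Car12 in experiment 3 (−0.10), Ndufa9 in experiment 1 (0.27) and Vmn1r54 in experiment 3 (0.48). The same held for Eif2s3y in experiment 3 (0.89), Olfr610 in experiment 2 (1.25) and Tas2r114 in experiment 3 (−0.24). Of the list medians, that of mast cells and basophils stood apart in experiment 2 (−1.33) and that of the oxidative stress response in experiment 1 (0.0335).

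The difference between fractions was not the same after eugenol as after muscone for 7 genes in limma (adjusted p under 0.05). Eugenol minus muscone was −3.61 for Olfr1434 (dim in GFP-positive cells after eugenol, so of unmeasured size), −3.46 for Olfr1440 and −3.12 for Olfr235. It was 1.26 for Csrnp1, 1.32 for Hdc, 0.97 for Hsd11b1 (also dim there) and 0.64 for Rap2b.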

How the results depend on the processing

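Without the replicate block 457 genes were higher and 1471 lower, with 410 and 138 odorant receptors, and 96 of 249 named genes lost their call. Centring on mature neuron genes gave 1811 higher genes and turned Prss56 to −0.0094 (limma adjusted p = 0.972). Centring on odorant receptors gave 639 higher and 17251 lower genes and 367 lower receptors. Leaving out 1 experiment gave 5314 to 6542 higher and 3745 to 3960 lower genes, and 636 to 652 higher and 193 to 214 lower receptors. Eugenol minus muscone, with 4 higher and 3 lower genes, gave 0 and 0 without the block, 15 and 12 with all 32 arrays, 1 and 1 after quantile normalization, 468 and 19 centred on mature neuron genes, 25 and 9 with array weights, and 0 to 88 and 1 to 15 with 1 experiment left out (88 and 15 without muscone experiment 3). Eugenol minus vehicle gave 0 genes in limma under every alternative run for it, but none of these paired the fractions of 1 exposure. Causes of these shifts were not tested, and 4 arrays a fraction limit all of them.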
